A study of Mus musculus with 2 samples.

Results

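The genes encoding the proteins of the mitochondrial ribosome were compared between pre CFU-E of WT mice and of mice lacking ESAM (ESAM-KO). A gene was a member if the RefSeq transcript of its probe belongs to a mouse gene whose symbol begins with Mrpl or Mrps and a number. That rule gave 78 genes among 20660 named genes on the array, 49 with an Mrpl symbol and 29 with an Mrps symbol. They were measured by 100 probes on 127 spots, none of them marked as an outlier by the scanner software, and all 78 passed background in both genotypes. The median of their log2 ratios, ESAM-KO relative to WT, was 0.21, beside 0.00 for all 14138 named genes with a ratio and -0.26 (0.05 without scaling between arrays) for the 75 genes of the cytosolic ribosome.

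Pre CFU-E are early erythroid progenitors of the bone marrow, sorted here for endoglin and CD150 among Lin- Sca1- c-Kit+ cells with low CD41 and with low or no FCgRII/III. Both groups were C57BL/6 mice of 8 to 12 weeks that had received 120 mg/kg of the cytotoxic drug 5-FU 8 days earlier, and they differed by the deletion of Esam, the gene of a junctional adhesion molecule of endothelial and hematopoietic stem cells. Bone marrow cells of 3 mice per genotype were pooled before the sort, and their RNA was amplified, labelled with Cy3 and hybridised to 1 Agilent SurePrint G3 mouse array per genotype. With 1 array per genotype no difference has a replicate check, so no test was made, and a difference between the genotypes cannot be told apart from a difference in pooling, sorting or amplification.

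The mitochondrial ribosome translates the few messages of the mitochondrial genome, all of which encode subunits of the respiratory chain and of ATP synthase. Its proteins are all encoded in the nucleus, made on cytosolic ribosomes and imported. Some are kin of bacterial ribosomal proteins, and others are found only in mitochondria. Erythroid precursors use mitochondria for heme synthesis, part of which takes place in that organelle.

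The promoters of 4 members are shown. Mrpl43 and Mrpl10 are the members past 2-fold, and Mrps22 is the highest member of the small subunit. Mrpl22 holds all 3 of the motifs marked, as Mrps18a also does. Each is the RefSeq window of build GRCm38.p6, from 250 bases before to 50 bases after the annotated start, read 5′ to 3′ along the gene. Capitals mark the ETS core CCGGAA, the NRF-1 motif TGCGCA and the YY1 core ATGGCGG, or their reverse complements TTCCGG and CCGCCAT (the NRF-1 motif is its own). ETS factors such as GABP, together with NRF-1 and YY1, are known regulators of nuclear genes for mitochondrial proteins. The windows lie at chr19:45006393-45006692, minus strand (Mrpl43), chr11:97041332-97041631, plus strand (Mrpl10), chr9:98601630-98601929, minus strand (Mrps22) and chr11:58171414-58171713, plus strand (Mrpl22).
Mrpl43: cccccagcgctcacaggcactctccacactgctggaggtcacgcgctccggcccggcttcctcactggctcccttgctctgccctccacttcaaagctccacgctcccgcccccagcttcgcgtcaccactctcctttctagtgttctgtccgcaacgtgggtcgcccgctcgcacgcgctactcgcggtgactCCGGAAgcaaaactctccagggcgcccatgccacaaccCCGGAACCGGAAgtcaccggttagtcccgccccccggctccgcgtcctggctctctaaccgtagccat
Mrpl10: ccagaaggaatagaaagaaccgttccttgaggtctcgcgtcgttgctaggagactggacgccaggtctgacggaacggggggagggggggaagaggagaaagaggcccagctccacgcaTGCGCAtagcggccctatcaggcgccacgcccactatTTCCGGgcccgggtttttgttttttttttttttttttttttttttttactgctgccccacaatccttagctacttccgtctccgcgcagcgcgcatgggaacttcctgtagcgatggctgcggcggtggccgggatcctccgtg
Mrps22: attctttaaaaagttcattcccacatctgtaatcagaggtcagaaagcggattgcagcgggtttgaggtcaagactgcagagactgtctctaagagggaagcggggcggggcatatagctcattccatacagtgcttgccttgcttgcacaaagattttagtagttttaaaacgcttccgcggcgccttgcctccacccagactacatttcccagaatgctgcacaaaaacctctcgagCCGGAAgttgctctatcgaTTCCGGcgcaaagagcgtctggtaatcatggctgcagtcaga
Mrpl22: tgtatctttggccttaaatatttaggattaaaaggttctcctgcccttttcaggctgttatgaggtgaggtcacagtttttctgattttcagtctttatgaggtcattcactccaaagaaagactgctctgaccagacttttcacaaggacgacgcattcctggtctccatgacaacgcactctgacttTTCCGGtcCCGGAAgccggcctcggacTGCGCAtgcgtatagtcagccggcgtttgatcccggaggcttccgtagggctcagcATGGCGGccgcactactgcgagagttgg

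The Mrpl43 window held the ETS core at 3 places, a pair of them side by side near the start, and the Mrpl10 window held 1 ETS core and 1 NRF-1 motif. A promoter sequence was found for 69 of the 78 members. The ETS core was present in 40 of the 69 (58.0%), against 28.1% of the 11007 protein-coding genes with a ratio and 16.7% of all 27025 genes with such a window. The NRF-1 motif was present in 30.4% of members against 14.4% and 8.79%, and the YY1 core in 18.8% against 8.48% and 4.69%. At least 1 of these motifs was found in 79.7% of members against 41.8% and 25.5%. The TATA box motif TATAAA was in 7.25% of members, beside 10.5% and 15.7%, the CCAAT box in 39.1%, beside 42.9% and 41.1%, and the motif AGATAA of GATA factors in 15.9%, beside 9.02% and 12.7%. Both strands were searched for each motif. The promoters of cytosolic ribosomal protein genes held the ETS core in 54.5% of 55 genes, and those of respiratory chain genes in 37.7% of 69. A match of letters is a description of the window and not a binding site. The share with an ETS core was 56.0% among the 50 members that were higher in ESAM-KO and 63.2% among the 19 that were lower, so that the motif was common on both sides.

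On each array, the log2 of the processed signal was taken relative to the array's 75th percentile, 201.1 in WT and 250.4 in ESAM-KO. This scaling changes each log2 ratio by -0.32 against unscaled signals. Below, a pair of signals gives the WT array first and the ESAM-KO array second, unscaled, and a value in parentheses after it is the scaled log2 ratio. Of the 59305 spots, 57.3% in WT and 61.1% in ESAM-KO had a signal well above background, and none was saturated. The scanner software's own error for a log2 ratio had a median of 0.20 over the members, and it covers the reading of the spot and not the preparation of the RNA. The Esam probe gave a signal of 27.4 in WT and 20.6 in ESAM-KO, which is a log2 ratio of -0.73. The place of that probe relative to the deleted part of the gene is not given in the sources used here, so this value does not check the labels.

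Of the 78 members, 55 were higher on the ESAM-KO array (70.5%) and 23 were lower, where 50.2% of all named genes were higher. The share of members that were higher was 61.5% when the arrays were scaled to their medians and 92.3% without scaling. The quartiles of the members' log2 ratios were -0.03 and 0.43, and those of all named genes were -0.40 and 0.37. After scaling, 41 members were higher by more than their own scanner error, beside 31.7% of all genes, and 10 were lower by more than it, beside 33.5%. A ratio past 2-fold was seen for 1 member upward and 1 downward, while 7.00% of all genes were past 2-fold upward and 8.39% downward (15.4% either way). Past 1.5-fold there were 13 members upward, beside 15.7% of all genes, and 2 downward beside 17.5%. The list was thus shifted by a small amount, with few members past 2-fold and few past 1.5-fold downward. The upward count past 1.5-fold was near the share of all genes. Those shares include dim genes, while 48 of the members lay in the brightest of 4 groups of genes by signal. Among 874 other genes as bright as the cytosolic ribosomal genes, the quartiles were -0.16 and 0.27. How far the spread of the members goes with their signal was not tested.

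**Figure D1:**
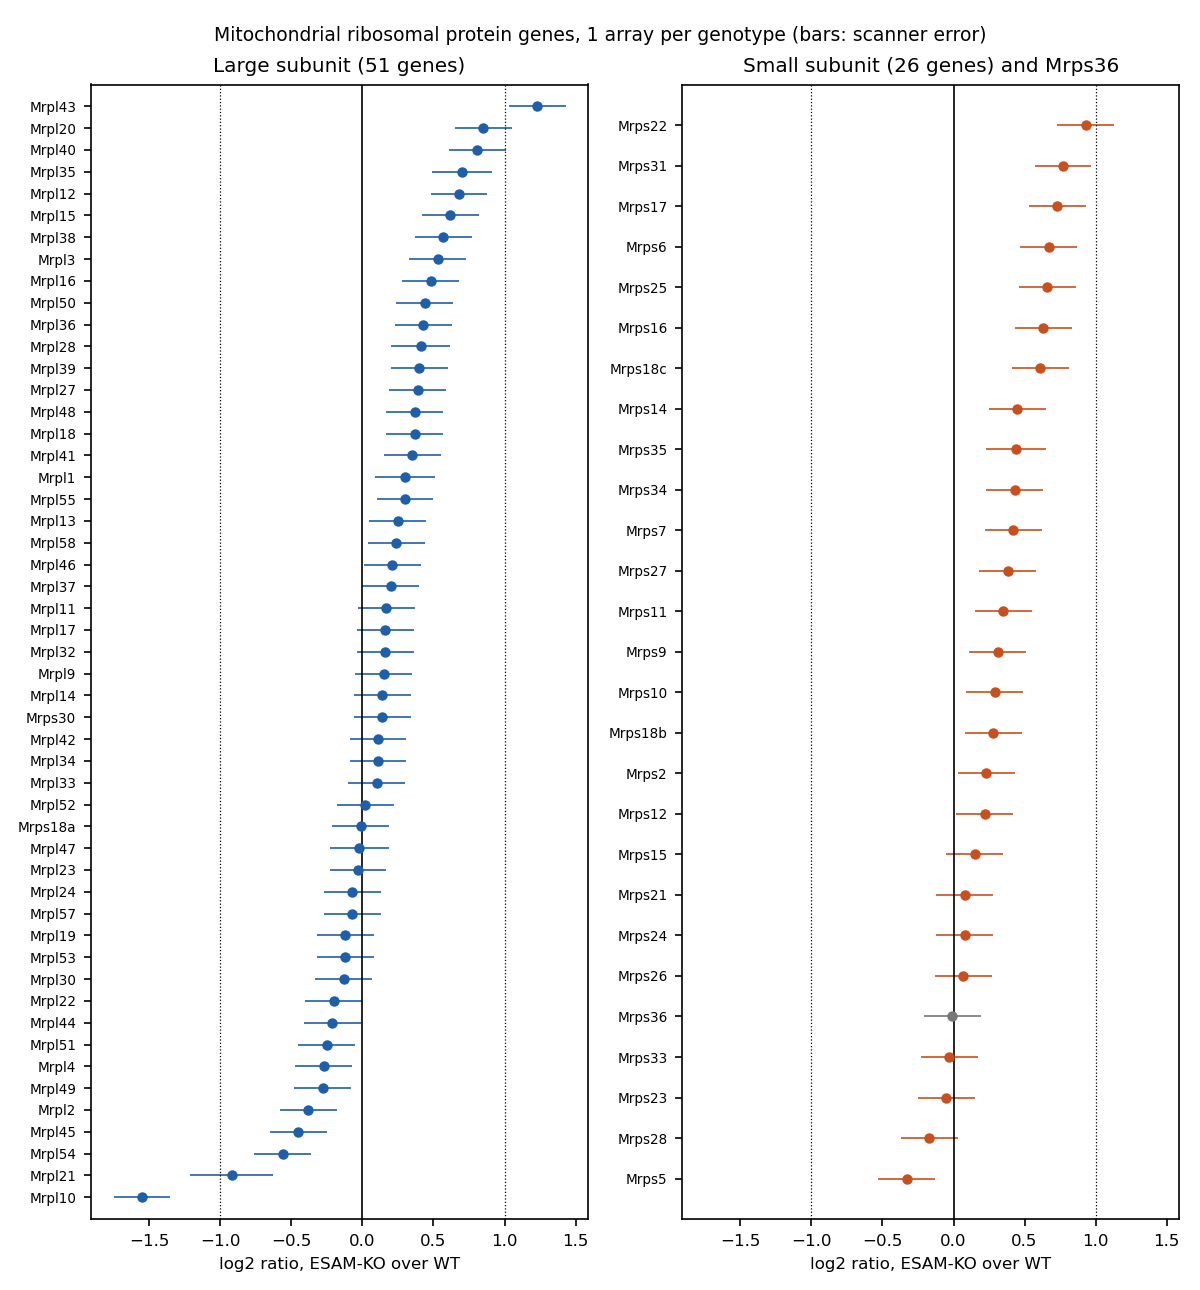
Log2 ratio of the processed signal, ESAM-KO over WT, of each of the 78 genes (x axis), ordered within the large subunit (left) and the small subunit with Mrps36 in grey (right). Points are single values of the brightest probe of each gene, from 1 array per genotype. Bars are the scanner software's error, and dotted lines mark 2-fold. Mrpl43 at 1.23 and Mrpl10 at -1.55 are past these lines, and 22 of the 26 genes of the small subunit lie right of 0. For some of these genes a second probe had the opposite sign.

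The largest ratio among members belonged to Mrpl43, a large subunit protein found only in mitochondria. Its signal was 897.1 in WT and 2621 in ESAM-KO, which is a log2 ratio of 1.23 (2.35-fold). A dimmer second probe of the gene read 230.6 and 347.3, a log2 ratio of 0.27, so that both probes were higher on the ESAM-KO array and the size depended on the probe. Mrps22, a small subunit protein mutated in a human mitochondrial disease, read 2118 and 5020, a log2 ratio of 0.93. Mrpl20, a kin of a bacterial protein needed early in the assembly of the large subunit, read 1219 and 2740 (0.85). Both stayed under 2-fold after scaling, and each had 1 probe.

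Mrpl40, whose human gene lies in the chromosome region lost in DiGeorge syndrome, read 291.4 and 634.6, a log2 ratio of 0.81. Its other probe read 213.9 and 524.6 (0.98), so that both of its probes came close to 2-fold. Mrps31 of the small subunit read 647.1 and 1374, a log2 ratio of 0.77. Mrps17, a small subunit protein with a bacterial kin, read 485.5 and 1000 (0.73), and its other probe 357.2 and 587.1 (0.40). All 6 of the highest members also had their higher signal on the ESAM-KO array before scaling. The scaling changes each log2 ratio by -0.32, so this holds for any gene above 0 after it and is no check.

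The lowest ratio belonged to Mrpl10, the base of the flexible stalk on which translation factors dock. Its signal was 783.6 in WT and 332.5 in ESAM-KO, which is a log2 ratio of -1.55 (2.93-fold lower). Its other probe read 538.9 and 427.4, a log2 ratio of -0.65, lower as well and short of 2-fold. Next to it in the stalk, Mrpl11 read 6793 and 9514 (0.17) and Mrpl12, the mobile stalk protein that also binds the mitochondrial RNA polymerase, read 2328 and 4635 (0.68). The 3 stalk genes thus lay at the bottom, in the middle and near the top of the list.

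Mrpl21 read 34.8 and 22.9, a log2 ratio of -0.92. Its signals were not far above the lowest that passed background, 12.6 in WT and 13.2 in ESAM-KO, and its scanner error was 0.29. Mrpl54 read 3215 and 2719, a log2 ratio of -0.56. Mrpl45, which lies at the exit of the peptide tunnel and ties the ribosome to the inner membrane, read 1028 and 935 (-0.45). Mrpl2, a protein of the peptidyl transferase region, read 2521 and 2419 (-0.38), and Mrps5 read 827.2 and 820.8 (-0.33). For Mrps5 the unscaled signals were nearly equal.

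**Figure D2:**
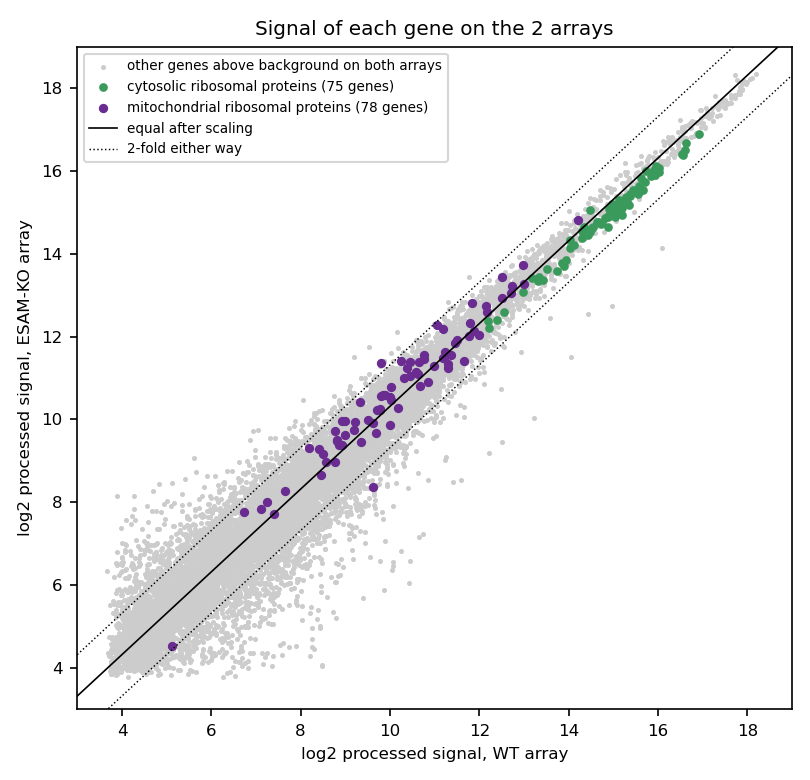
Log2 processed signal in WT (x axis) and in ESAM-KO (y axis) of each named gene above background on both, unscaled. The solid line marks equal levels after scaling and dotted lines 2-fold; the mitochondrial genes (purple) lie mostly above the solid line across their range, and 74 of the 75 cytosolic ribosomal genes (green), at higher signals, lie under it, 26 of 75 being lower without scaling.

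The large and small subunits were described by the place of each protein in the ribosome, since Mrps30 and Mrps18a carry small subunit symbols and sit in the large one. In the large subunit 33 of 51 genes were higher in ESAM-KO, with a median log2 ratio of 0.16. In the small subunit 22 of 26 genes were higher, with a median of 0.33. Both counts take the brightest probe of each gene, and these and the following signs are those after scaling. Of the small subunit genes counted as higher, Mrps14, Mrps18b, Mrps2 and Mrps25 had a second probe that was lower. Mrps23 and Mrps33, counted as lower, had a second probe that was higher. In the large subunit the second probe was lower for Mrpl41, counted as higher, and higher for Mrpl22 and Mrpl49, counted as lower. By symbol alone the medians were 0.16 for 49 genes and 0.29 for 29. Both members past 2-fold belonged to the large subunit, which also held the wider range, from -1.55 to 1.23 against -0.33 to 0.93. The difference between the subunits was not tested.

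Within the large subunit, 20 of the 30 proteins kept from bacteria were higher (median log2 ratio 0.16), and so were 13 of the 21 found only in mitochondria (0.14). Within the small subunit the counts were 14 of 16 (0.30) and 8 of 10 (0.41). The medians thus differed less by origin than by subunit. Mrps30 read 489.0 and 669.4 (0.14), and Mrps18a read 784.9 and 969.4 (-0.01). Of the paralogues of Mrps18a in the small subunit, Mrps18c read 5851 and 11083 (0.61), and Mrps18b read 4531 and 6845 by its brighter probe (0.28) and 794.8 and 974.7 by the other (-0.02). Mrps36, which despite its name is a subunit of the oxoglutarate dehydrogenase complex, read 2027 and 2516 (-0.01).

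Among members with known tasks, Mrps12, a core protein of the decoding centre, read 3527 and 5118, a log2 ratio of 0.22. Mrpl58, a peptidyl-tRNA hydrolase that frees stalled peptides, read 1536 and 2257 (0.24). Mrps16 and Mrpl3, both mutated in human mitochondrial disease, read 435.2 and 838.5 (0.63) and 1341 and 2406 (0.53). Mrpl44, another gene of such disease, went the other way with 1155 and 1241 (-0.21), a value that is negative after scaling only.

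Proteins of the mitochondrial ribosome that carry other names were not members and were looked at beside them. Of 5 such genes 4 were higher, with a median log2 ratio of 0.29. The GTP-binding protein Dap3 was the lower one, with signals of 3307 and 2867 (-0.52). Ptcd3, which binds RNA in the small subunit, read 1828 and 2780 (0.29).

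**Figure D3:**
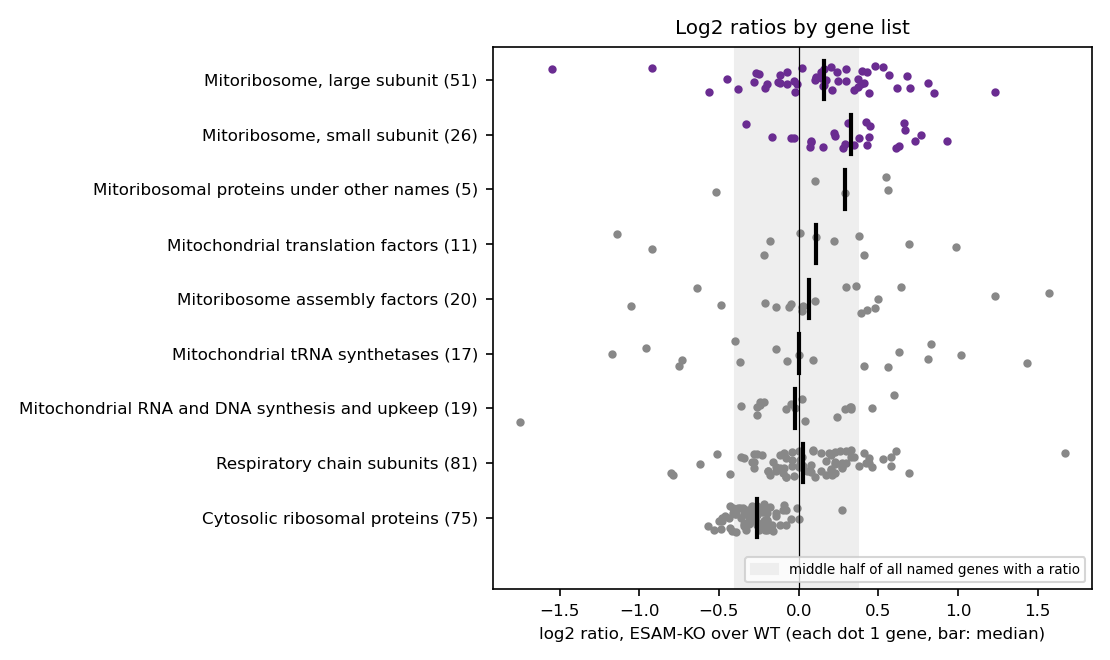
Log2 ratio, ESAM-KO over WT, of each gene (dots) in the mitochondrial ribosome and in related lists, with the number of genes with a ratio in parentheses, medians as black bars and the interquartile range of all named genes shaded. Vertical scatter within a row has no meaning; the medians run from 0.33 (small subunit) and 0.16 (large subunit) to 0.03 for the respiratory chain and -0.26 for the cytosolic ribosome, the last turning to 0.05 without scaling.

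For the rest of the machinery of mitochondrial gene expression the list medians were closer to 0. Of 11 translation factors 7 were higher (median log2 ratio 0.11). Tufm, the elongation factor that delivers tRNA, read 1038 and 1390 (0.11), Gfm1, the translocase, read 204.9 and 296.6 (0.22), and Mrrf, the ribosome recycling factor, was past 2-fold lower with 68.4 and 38.6 (-1.14). Of 20 assembly factors with a ratio 13 were higher (0.07). The pseudouridine synthase Rpusd3 was past 2-fold higher with 44.0 and 128.7 (1.23), and Mrm1, a methyltransferase of ribosomal RNA, past 2-fold lower with 930.7 and 558.7 (-1.05). Mettl15, another methyltransferase, read 14.1 on the WT array, not well above background, and 52.3 on the ESAM-KO array, at least 2.97-fold higher.

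Of 17 mitochondrial tRNA synthetases 9 were higher and 8 lower (median log2 ratio 0.00). Past 2-fold were Mars2 with 23.7 and 80.0 (1.43) and Yars2 with 176.0 and 445.3 (1.02) upward, and Vars2 with 156.1 and 86.3 (-1.17) downward. Of 19 genes for the synthesis and upkeep of mitochondrial RNA and DNA 9 were higher (-0.02). Mgme1, a nuclease of mitochondrial DNA, was past 2-fold lower with 102.6 and 37.9 (-1.75). Tfam, which packages that DNA, read 749.1 and 1170 (0.33), the polymerase Polrmt 452.3 and 554.4 (-0.02) and the RNA-binding protein Lrpprc 3340 and 4229 (0.02). The polymerase and Lrpprc were thus close to the median of all genes, and Tfam was above it.

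The respiratory chain, whose mitochondrial subunits this ribosome makes, was measured through its nuclear genes. The list took in genes of complex II and of ATP synthase. Of 84 such genes 81 had a ratio, 47 of them were higher, and their median log2 ratio was 0.03. Ndufab1, the mitochondrial acyl carrier protein and a subunit of complex I, was the single one past 2-fold, with signals of 104.7 and 414.0 (1.67). The nuclear genes of this list thus had a median near that of all genes, while the genes of the mitochondrial ribosome itself lay mostly above it.

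The genes of the cytosolic ribosome lay on the other side. After scaling, 74 of 75 were lower in ESAM-KO, with log2 ratios from -0.57 to 0.27, and without scaling 26 of 75 were lower with a median of 0.05. The median of the mitochondrial list exceeded that of the cytosolic list by 0.48, a value that a uniform scaling leaves as it is. This difference was 0.40 after quantile normalization and 0.37 after normexp background correction followed by quantile normalization. The cytosolic genes lay at higher signals, so the comparison was repeated among genes in their range of signal. There, 9 of 10 mitochondrial ribosomal genes were higher (median 0.22), and 874 other genes had a median of 0.05 with 43.4% lower. When the 12615 genes above background on both arrays were divided into 4 nearly equal groups of rising signal, the group medians were -0.05, -0.04, -0.03 and 0.02, and those of the 1, 5, 24 and 48 members in them were -0.92, 0.41, 0.23 and 0.17.

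For 22 members the array carried more than 1 probe, and for 21 of them both were well above background, the second probe of Mrpl39 being the exception. After scaling, the 2 probes had log2 ratios of the same sign for 11 of these 21 genes (52.4%). This compares with 58.1% of 3056 genes over the whole array with at least 2 such probes. The median gap between probes was 0.34 for members and 0.47 for all genes. The second probes alone had a median log2 ratio of 0.27, with 13 of 21 higher. The median of the second probes was thus close to that of the list, while the sign for single genes after scaling often changed with the probe.

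Mrps14 had the widest disagreement in sign, with a log2 ratio of 0.45 for its brighter probe (889.1 and 1508) and -0.83 for the other (413.7 and 289.0). Mrps25 gave 0.66 (3638 and 7153) and -0.44 (476.1 and 436.1), and Mrpl41 0.35 (447.5 and 712.5) and -0.65 (404.0 and 319.9). Mrps23 gave -0.05 and 0.90, Mrps36 -0.01 and 0.67, and Mrpl22 -0.20 and 0.40. Smaller changes of sign were seen for Mrps33 (-0.03 and 0.32), Mrpl49 (-0.28 and 0.07), Mrps18b (0.28 and -0.02) and Mrps2 (0.23 and -0.07). For these 10 genes no direction can be given from the scaled values. Without scaling only Mrps14, Mrps25 and Mrpl41 had probes of opposite sign, and both probes of the others were higher. The agreement in sign thus depended on the scaling. Members with 1 probe have no such check of their sign, and the count of 55 higher members rests on the brightest probe of each.

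Both probes were higher for Mrps7, with 0.42 (1600 and 2672) and 1.19 (356.7 and 1013), the second past 2-fold. They were also both higher for Mrpl15 (0.62 and 0.35), Mrpl50 (0.44 and 0.36), Mrpl27 (0.39 and 0.52) and Mrps26 (0.07 and 0.19), besides Mrpl43, Mrpl40 and Mrps17 above. Both were lower for Mrpl4 (-0.27 and -0.08) and Mrpl47 (-0.02 and -0.28), besides Mrpl10. Among genes whose probes had the same sign after scaling, 8 were thus higher and 3 lower. Without scaling, both probes were higher for Mrpl4 (0.05 and 0.23) and Mrpl47 (0.30 and 0.03), and both stayed lower for Mrpl10. The ratios of Mrps26, -0.08 for Mrpl4 and -0.02 for Mrpl47 were smaller than their scanner errors.

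**Figure D4:**
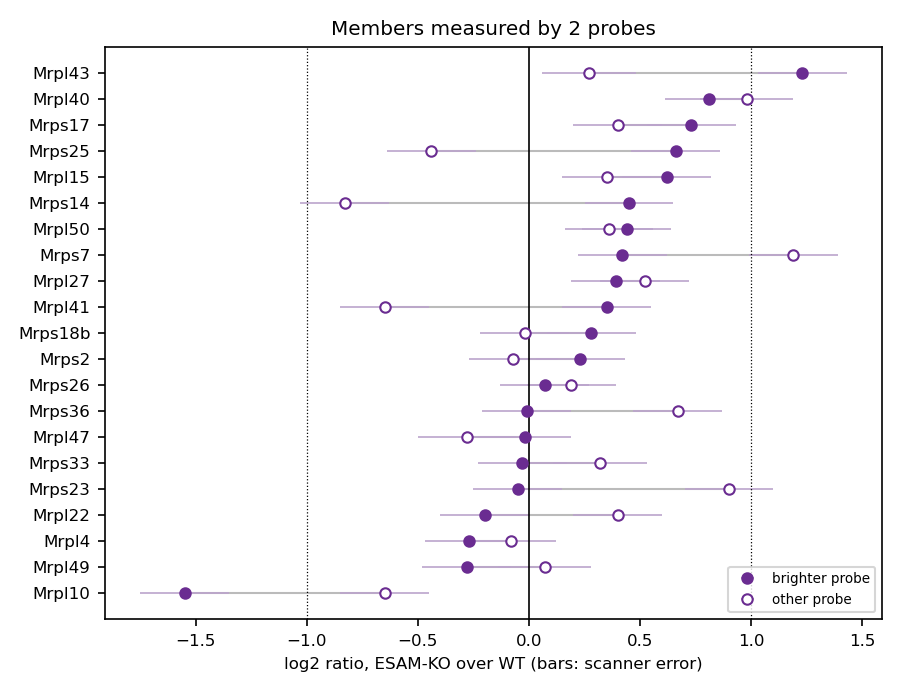
Log2 ratio, ESAM-KO over WT, of both probes of each of the 21 members with 2 probes well above background (filled, brighter probe; open, other probe; bars, scanner error; dotted lines, 2-fold). The probes lie on opposite sides of 0 for 10 genes, such as Mrps14 at 0.45 and -0.83, and on the same side for Mrpl43, Mrpl40 and Mrpl10.

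A few probes are printed 10 times on the array, which shows how well a spot repeats. For Mrpl50 the log2 ratios of its 10 spots averaged 0.44 with an SD of 0.050 over spots and ran from 0.37 to 0.50. For Mrpl34 they averaged 0.11 (SD 0.051) and for the dimmer Mrps35 0.44 (SD 0.123). The lowest single spot was still above 0 for each, at 0.37, 0.06 and 0.24 in the same order. This spread is that of printing and scanning alone.

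Members often lay head to head with another gene. A start on the opposite strand within 500 bases upstream was found for 23 of 69 members (33.3%), against 15.4% of the 11007 protein-coding genes with a ratio, 18.2% of cytosolic ribosomal protein genes and 27.5% of respiratory chain genes. Mrps11 and Mrpl46, on chromosome 7, are such a pair with 42 bases between their starts, and their log2 ratios were 0.35 and 0.21. Of the 20 partners that were no members and had a ratio, 15 were higher and 5 lower (median 0.32), where 50.2% of all named genes were higher. Helq and 2610507I01Rik, among the higher ones, passed background on the ESAM-KO array only. They had a ratio only because they were higher there. The sign was that of the neighbouring member in 10 of the 20.

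Mrpl43 starts 116 bases from Twnk, the helicase of mitochondrial DNA, on chromosome 19. Twnk read 35.1 and 37.1, a log2 ratio of -0.24 beside 1.23 for Mrpl43. Mrpl21 and Ighmbp2 start 32 bases apart and went opposite ways, with -0.92 for the member and 1.1 for Ighmbp2 (116.8 and 310.7). Mrpl37 read 837.3 and 1201 (0.20), and its partner Cyb5rl read 31.0 and 191.7 (2.31). Mrps12 starts 147 bases from Sars2, the mitochondrial seryl-tRNA synthetase, at 0.22 and -0.37. The pairs named here were chosen after their values were seen. Other pairs had close ratios, such as Mrpl50 and Zfp189 (0.44 and 0.41), Mrpl18 and Tcp1 (0.37 and 0.35) and Mrpl49 and Fau (-0.28 and -0.35), and no test of likeness within pairs was made.

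Markers of neutrophils, of B cells and of erythroid maturation differed between the arrays by more than the members did, those of the other cell types were mixed, and in bulk RNA fewer cells of a type cannot be told apart from less RNA per cell. All 8 neutrophil markers were past 2-fold lower in ESAM-KO (median log2 ratio -3.32), and their summed signal, in units of each array's 75th percentile, was 243 in WT and 35.6 in ESAM-KO. Of 7 markers of erythroid maturation 6 were past 2-fold lower (median -2.28), with sums of 469 and 107. Of 6 B cell markers 4 were past 2-fold lower, with sums of 2.46 and 0.693. Of 8 markers of erythroid progenitors none was past 2-fold, the median was -0.33 and the sums were 195 and 163, and the sort markers read 3414 and 3326 for Kit (-0.35), 374.9 and 268.7 for Eng, the endoglin gene (-0.80), and 17.8 and 23.0 for Slamf1, the CD150 gene (0.05), the last close to background. Of 4 macrophage markers with a ratio C1qa was past 2-fold higher (17.7 and 50.3) and Vcam1 past 2-fold lower (121.5 and 20.6), with sums over 5 markers of 33.5 and 29.7, and Adgre1, the F4/80 antigen, read 13.6 and 16.4, above background on 1 array only and without a ratio. Sums of 5 megakaryocyte markers were 7.50 and 7.68, with Gp9 at least 2.05-fold lower in ESAM-KO (21.7 and 13.1). Sums of 4 endothelial markers were 11.7 and 9.86, carried by Kdr (2056 and 2345), with Pecam1 past 2-fold lower (283.8 and 88.9), Tek at least 2.15-fold higher (6.58 and 33.6) and Cdh5 not well above background on either. Of 6 proliferation markers 4 were higher (median 0.30, sums 99.4 and 117). The summed signal of the members on that scale was 798 and 923, and the part of any of these markers in it was not tested.

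**Figure D5:**
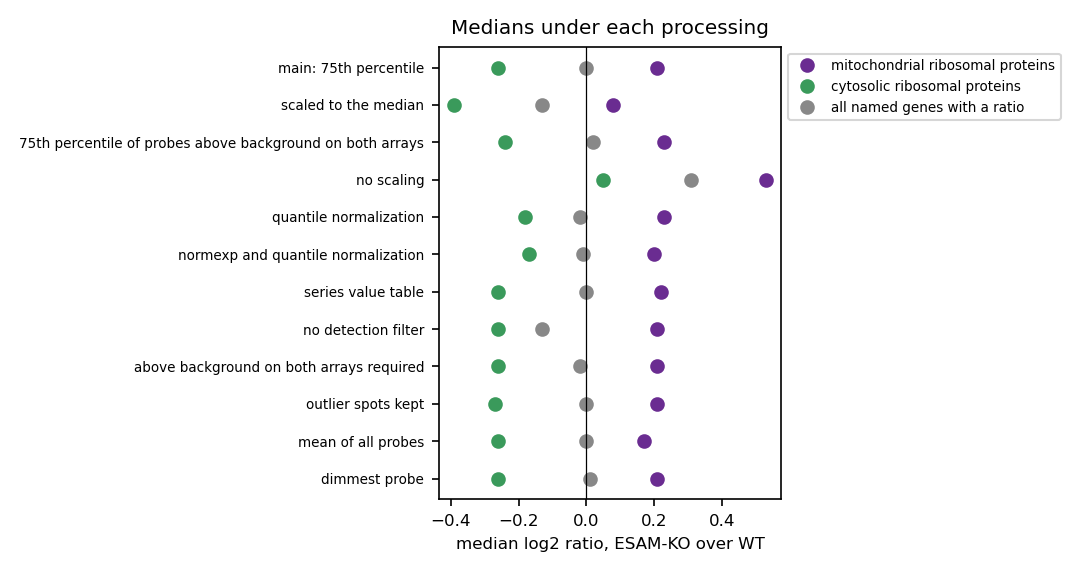
Median log2 ratio, ESAM-KO over WT (x axis), of the 78 mitochondrial ribosomal protein genes, the 75 cytosolic ones and all named genes with a ratio, under each of 12 ways of processing (rows). The mitochondrial median lies right of that of all genes in every row, from 0.08 when scaled to the median to 0.53 without scaling, where the cytosolic median turns to 0.05 and that of all genes to 0.31.

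The sign of the list's median did not depend on the scalings tried, but its size and the count of members on each side of 0 did. Scaled to the array median, 48 of 78 members were higher, beside 40.8% of all genes, and the median was 0.08. Without scaling 72 were higher, beside 71.0% of all genes, and the median was 0.53. The median of all named genes was -0.13 and 0.31 under these settings, and that of the members lay 0.22 above it in both, beside 0.21 in the values given first. A uniform scaling leaves this gap nearly as it is, so its likeness across these settings is no check. The gap was 0.24 after quantile normalization and 0.21 after normexp followed by quantile normalization.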

How the data were processed

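Pre CFU-E of WT and ESAM-KO mice were measured on 1 one-colour array per genotype, hybridised on 1 slide and scanned together. The authors deposited the intensity of every spot as given by Agilent Feature Extraction 10.10.1.1 (submitters' processing notes), background-subtracted and not scaled between arrays; a series table of the same intensity served as an alternative. The members and gene lists were chosen with earlier results of these data known.

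Control spots and 254 outlier spots were left out. Log2 intensities were set relative to the 75th percentile of their array and spots of a probe averaged. A probe passed background if over 50% of its spots were flagged as well above it. If it passed on 1 array only, the dim array's value was replaced by that array's lowest passing signal, unless the probe itself was brighter, and the ratio is a lower bound. The files hold accessions without symbols. RefSeq accessions (GRCm38.p6) named 27235 of 55681 probes (48.9%), and the brightest probe stood for its gene. Coordinates of that build are given for promoters only, which come from RefSeq, and are not those of the array's design (mm9). Named were members past 2-fold, the 6 highest and 6 lowest, those with several probes and a fixed set by function; other lists give counts, genes past 2-fold and a few fixed genes.

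With 1 array per genotype no test was possible, and the number of arrays limits the precision. Alternatives were other scalings, quantile and normexp (offset 50, on median spot signals, since the files used hold no mean signals), the series table, other filters and other choices of probe. Python 3.11.15 (pandas 2.3.3, numpy 2.4.6) and R 4.3.3 (limma 3.58.1) were used, and the counting was tested on simulated data.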

Additional observations from a re-analysis of the deposited data

How the results depend on the processing

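No paired analysis was possible because there is 1 array of each genotype. The median of the members stayed above 0 and above that of all named genes under all 11 alternative settings of scaling, background, filter and probe. Without scaling, which shifts every ratio by the same amount, it was 0.53, with 0.48 for the large and 0.61 for the small subunit by symbol, 7.69% of members lower and 8 past 2-fold (Mrpl10, Mrpl20, Mrpl35, Mrpl40, Mrpl43, Mrps17, Mrps22 and Mrps31). With the mean of all probes 1 member was past 2-fold (Mrpl10), and with the dimmest probe 1 (Mrps7). A threshold of 1.5-fold gave 15 and one of 3-fold gave 0. Scaling to the median or quantile normalization gave 3, adding Mrpl21. Of 946 values of 86 single genes under alternatives, 827 moved by less than the scanner error and 119 by more. Of those 119, 86 were without scaling, 18 with the dimmest probe, 11 with the mean of probes and 4 with normexp. Much of this was fixed beforehand and is no check. Uniform scalings shift every gene alike. The filters could not change genes above background on both arrays, the series values are the same intensity, and members had no outlier spots. A gene with 1 probe cannot move with the choice of probe. Quantile normalization and normexp could move single genes, and 86 and 82 genes in that order moved by less than the error. Leaving out a replicate was not possible, and what depends on 1 probe, such as the size for Mrpl43 (0.27 to 1.55) and for Mrpl10 (-1.68 to -0.65), is limited by that probe.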
